A study of Mus musculus with 8 samples.

Results

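Matrix metalloproteinases are zinc-dependent enzymes that cut collagens, basement membrane and other matrix proteins, and the tissue inhibitors of metalloproteinases (Timps) block them by binding the active site. Here 10 such genes, chosen with earlier results of these data known, are described in regenerating mouse muscle. They are the metalloproteinases Mmp2, Mmp3, Mmp9, Mmp12, Mmp13, Mmp14 and Mmp19 and the inhibitors Timp1, Timp2 and Timp3. The array table named 19752 genes by rows with a single gene symbol, and each of the 10 had 1 such row. All 10 also lay among the 15007 genes that passed the filter on dim rows, so none was lost to it.

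Gene expression was measured in the injured tibialis anterior, a shin muscle, from male C57BL/6 mice. A metal probe chilled in liquid nitrogen had been applied to the muscle for 8 seconds, and whole muscle was taken 8 days later. Both groups carried Foxp3-Cre. In the ST2 flox group (4 samples) it was combined with a floxed ST2 gene, and in the ST2 WT group (4 samples) with wild-type ST2. The labels give an age of 10 weeks for both groups, and the description of the series gives 2 months. Foxp3 is expressed by regulatory T cells, so the Cre acts in a cell type that makes up little of whole muscle, and the arrays read the RNA of all cells of the tissue. Samples are numbered 1 to 4 within each genotype in their titles. What a number stands for is not stated. Nothing says that the samples are separate animals, and p-values therefore measure only the spread among these 8 samples, whose source may be technical. The ST2 gene itself (Il1rl1) was not analysed here, so the genotype labels were not checked against it.

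Metalloproteinases are made as inactive proenzymes. The membrane-bound Mmp14, itself activated by the convertase furin, holds Timp2 at the cell surface and with it captures and activates pro-Mmp2, while plasmin and Mmp3 activate others, Mmp9 and Mmp13 among them. In damaged muscle, Mmp9 is known from neutrophils and macrophages, Mmp12 from macrophages, and Mmp2, Mmp14 and the Timps from stromal and muscle cells. Degradation of the matrix lets inflammatory cells and myoblasts move, and the inhibitors limit it.

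The median intensity of the arrays lay between 185 and 189, and arrays correlated with each other at r = 0.976 to 0.995 across genes. All 9 muscle fibre markers (such as Acta1 and Ckm) passed the filter. In all, 2 samples stood apart in their cell type markers. WT sample 4 had a summed intensity of 2594 over the 8 skin keratinocyte markers, against 789 to 1074 on the other 7 samples. Flox sample 4 had the lowest sum for macrophage markers (8658 against 9754 to 13825 elsewhere) and for fibro-adipogenic progenitor markers (14213 against 17144 to 21770). Genotype differences are given also without flox sample 4 below, and values without WT sample 4 where it changed a call or a sign.

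The genotypes did not separate these genes. In the limma fit over all 15007 genes, 0 of the 10 passed an adjusted p of 0.05, 0 had an unadjusted p under 0.05, and the flox and WT values of every one of the 10 overlapped. Over all genes the same fit called 0% (0 genes, with 569 at an unadjusted p under 0.05), and 1.97% had genotype groups that did not overlap. The mean was higher in flox for 7 of the 10 genes and lower for Mmp2, Mmp3 and Timp3, where 48.84% of all genes were higher. The median difference of the 10 was 0.08 log2, against -0.002 over all genes tested. The count of these genes with a higher mean in flox was 4 without WT sample 3. Flox sample 4 moved the genotype fit most: without it 3012 of all genes had an unadjusted p under 0.05 and 2 were called, none of them among the 10, of which 9 then had the higher mean in flox (adjusted p of 0.180 to 0.956). That unadjusted count was 245 to 576 without any other 1 sample and 929 with the number pair in the fit.

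Between the samples titled 1 and 2 and those titled 3 and 4, 1 of the 10 genes passed the test. The mean of samples 1 and 2 was higher for 9 of the 10, and Mmp12 alone had a lower mean there. Over all genes it was higher for 43.29%. Mmp13 passed the threshold over all genes, at 4.26-fold (2.09 log2, SE 0.31, limma adjusted p = 0.0332), and the other 9 did not (adjusted p of 0.0637 to 0.246). Over all genes, 0.213% were called higher in samples 1 and 2 and 0.16% lower. All 10 genes had an unadjusted p under 0.05, as did 2787 of the 15007. The values of samples 1 and 2 lay above all values of samples 3 and 4 for 4 of the 10 (Mmp2, Mmp3, Mmp13 and Timp3), where 4.54% of all genes did so. For 0 of the 10 they lay below all of them, where 6.21% of all genes did. The median difference of the 10 was 0.43 log2, against -0.02 over all genes. This division by number was first seen in an earlier look at these data, so it describes these samples and is not an independent test.

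**Figure D1:**
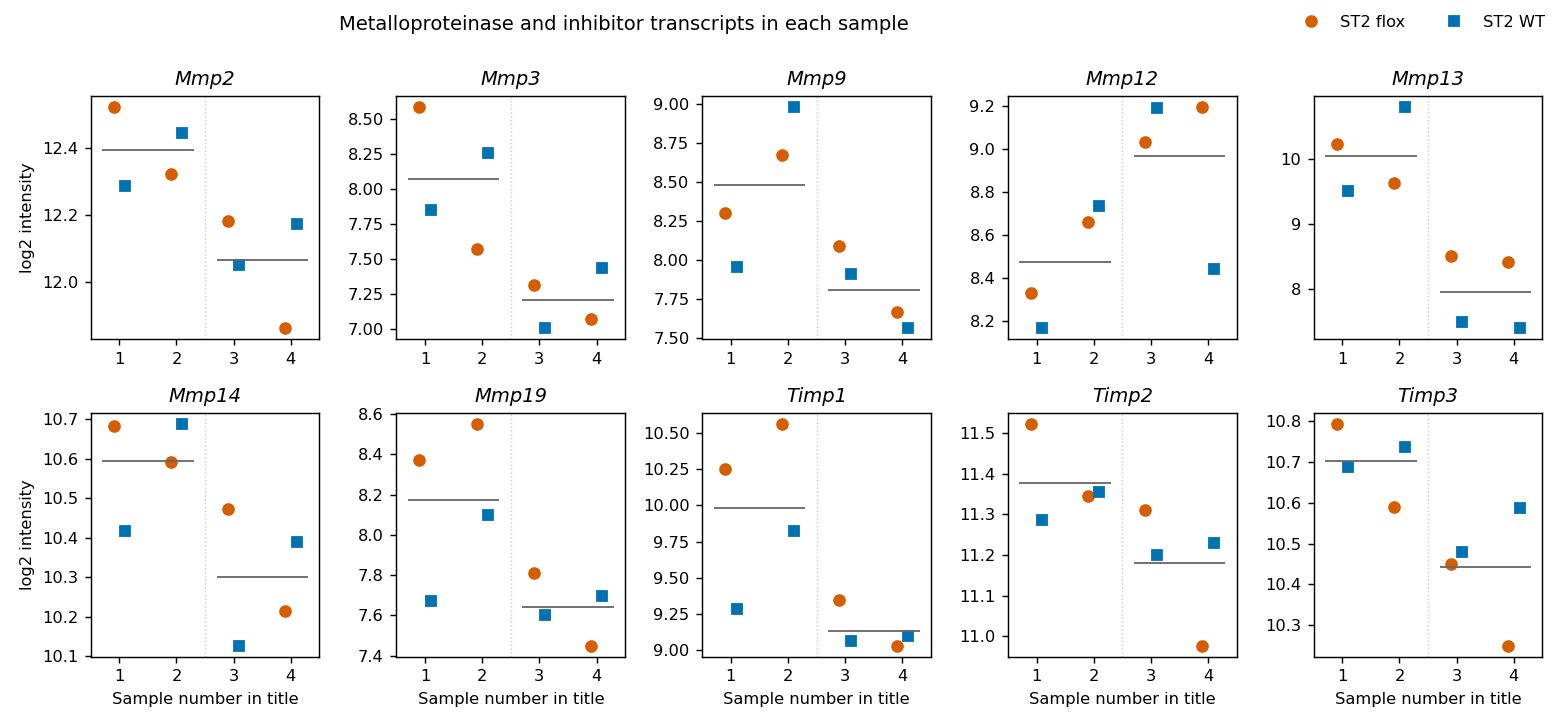
Log2 intensity (vertical axis, scaled separately for each gene) against the sample number in the title, for ST2 flox (circles) and ST2 WT (squares), with 1 point per sample. Grey lines are the means of the 4 samples numbered 1 and 2 and of the 4 numbered 3 and 4: for Mmp13 they are 10.05 and 7.96, and for Mmp12 8.47 and 8.96.

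Mmp13 is the main collagenase of the mouse and cuts fibrillar collagen. Its log2 intensity was 10.24, 9.64, 8.52 and 8.42 on flox samples 1 to 4. On WT samples 1 to 4 it was 9.52, 10.81, 7.50 and 7.40. Samples 1 and 2 of both genotypes were thus high and samples 3 and 4 low, with a gap between 8.52 and 9.52 that no sample filled. Intensity spanned 10.6-fold within WT, from 169 to 1794, and 3.52-fold within flox. The genotype difference was 0.40 log2 (SE 0.72, n = 4 and 4, limma adjusted p = 0.937), smaller than its own error. It was -0.07 without WT sample 4, -0.04 without WT sample 3, 0.66 without flox sample 4 and 1.06 without WT sample 2. The number difference ranged from 1.71 (without WT sample 2) to 2.33 (without flox sample 2) when each sample was left out. Its adjusted p passed 0.05 without any 1 of flox sample 4, WT sample 1 and WT sample 2. It was 0.0938, 0.0594 and 0.0870 without flox sample 1, 2 or 3, and 0.0923 and 0.0916 without WT sample 3 or 4.

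Mmp3, or stromelysin 1, cuts many matrix proteins and activates other proenzymes. Its log2 intensity was 8.59, 7.57, 7.32 and 7.07 on flox samples 1 to 4 and 7.85, 8.26, 7.002 and 7.43 on WT samples 1 to 4. Samples 1 and 2 lay above 3 and 4, though flox sample 2 exceeded WT sample 4 by little. The number difference was 0.86 log2, or 1.82-fold (SE 0.20, limma adjusted p = 0.0779), and the genotype difference was -0.001 (SE 0.33, limma adjusted p = 1.00). The genotype value was -0.32 without flox sample 1, 0.19 without flox sample 4 and 0.21 without WT sample 2.

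Mmp12, the macrophage elastase, went the other way. Its log2 intensity was 8.33, 8.66, 9.03 and 9.20 on flox samples 1 to 4 and 8.16, 8.73, 9.19 and 8.44 on WT samples 1 to 4. In flox both of samples 3 and 4 lay above 1 and 2, whereas WT sample 4 lay among the low ones. The number difference was -0.49 log2 (SE 0.17, limma adjusted p = 0.183) and widened to -0.67 without WT sample 4, still short of the threshold. Mmp12 was 0.17 higher in flox (SE 0.23, limma adjusted p = 0.922), by 0.02 without WT sample 1, 0.04 without flox sample 4 and 0.36 without WT sample 3.

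Mmp13, Mmp12 and Mmp3 lie in a cluster of metalloproteinase genes on chromosome 9, and their promoter sequences are shown because these genes had the largest number difference of the 7 enzymes, the opposite one, and the next largest. The sequences are from RefSeq (build GRCm38.p6) and hold the 250 bases before each annotated start, 5′ to 3′ on the gene's strand; Mmp12 has 2 annotated starts. Capitals mark matches to 3 motifs: TGANTCA, the AP-1 motif, which reads alike on both strands; AACCACA, a Runx motif, sought on both strands; and TATAAA, sought on the gene's strand. No capitals overlap between motifs.
Mmp13, chr9:7272264-7272513, + strand: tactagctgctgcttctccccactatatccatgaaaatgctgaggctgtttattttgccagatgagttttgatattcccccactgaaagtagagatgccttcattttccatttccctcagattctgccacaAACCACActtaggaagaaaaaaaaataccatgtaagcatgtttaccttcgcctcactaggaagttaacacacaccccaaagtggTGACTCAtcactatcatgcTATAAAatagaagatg
Mmp3, chr9:7445572-7445821, + strand: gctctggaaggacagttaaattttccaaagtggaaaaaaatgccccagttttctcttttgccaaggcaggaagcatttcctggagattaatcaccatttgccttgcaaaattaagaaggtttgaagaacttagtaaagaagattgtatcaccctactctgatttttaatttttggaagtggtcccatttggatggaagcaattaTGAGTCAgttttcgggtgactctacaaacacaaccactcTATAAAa
Mmp12 first start, chr9:7344147-7344396, + strand: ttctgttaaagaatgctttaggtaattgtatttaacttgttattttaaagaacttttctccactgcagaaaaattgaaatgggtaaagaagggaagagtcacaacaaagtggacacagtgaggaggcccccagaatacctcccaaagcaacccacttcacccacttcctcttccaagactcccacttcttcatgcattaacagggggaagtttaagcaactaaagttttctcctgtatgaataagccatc
Mmp12 second start, chr9:7347124-7347373, + strand: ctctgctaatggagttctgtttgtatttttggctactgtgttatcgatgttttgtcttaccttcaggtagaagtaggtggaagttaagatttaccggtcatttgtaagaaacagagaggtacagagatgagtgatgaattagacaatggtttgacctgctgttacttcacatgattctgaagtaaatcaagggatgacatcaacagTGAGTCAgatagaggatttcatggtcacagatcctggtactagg

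Counted from the annotated start, with -1 the base just before it, the AP-1 motif lay at -35 to -29 in Mmp13, at -46 to -40 in Mmp3 and at -44 to -38 before the second start of Mmp12. It was found in 6.75% of the 32851 promoter windows of this length in the table. Mmp13 also held the Runx motif at -119 to -113 (4.4% of windows). The TATAAA motif lay at -16 to -11 in Mmp13 and at -7 to -2 in Mmp3 (7.59% of windows). Whether the annotated starts are those used in this muscle was not tested. Promoters were found for 7 of the 10 genes, and the windows of Mmp14, Timp1, Timp2 and Timp3 held none of the 3 motifs. Mmp2, Mmp9 and Mmp19 were not matched. A match shows only that the letters are present. Whether any motif bears on the differences by number was not tested.

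The gelatinases Mmp2 and Mmp9 cut denatured collagen and type IV collagen of the basement membrane. Mmp2 read 12.52, 12.32, 12.18 and 11.86 on flox samples 1 to 4 and 12.29, 12.45, 12.05 and 12.17 on WT samples 1 to 4. Every sample numbered 1 or 2 lay above every one numbered 3 or 4, by 0.33 log2 on average (SE 0.09, limma adjusted p = 0.107). Between genotypes Mmp2 differed by -0.02 (SE 0.13, limma adjusted p = 0.987), ranging from -0.12 without flox sample 1 to 0.10 without flox sample 4. Mmp9 read 8.30, 8.67, 8.08 and 7.66 on flox samples 1 to 4. It read 7.96, 8.98, 7.91 and 7.56 on WT samples 1 to 4. WT sample 2 was the highest of all and the number groups overlapped, since flox sample 3 lay above WT sample 1. The number difference of Mmp9 was 0.67 log2, or 1.59-fold (SE 0.20, limma adjusted p = 0.137), and was 0.46 without WT sample 2. Its genotype difference was 0.08 (SE 0.29, limma adjusted p = 0.970), with -0.10 without WT sample 4, 0.25 without flox sample 4 and 0.37 without WT sample 2.

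Mmp14, the membrane-bound activator of Mmp2, varied little. It read 10.68, 10.59, 10.47 and 10.22 on flox samples 1 to 4 and 10.42, 10.69, 10.13 and 10.39 on WT samples 1 to 4. The number difference was 0.29 log2 (SE 0.09, limma adjusted p = 0.136), with overlap because flox sample 3 exceeded WT sample 1, and the genotype difference was 0.09 (SE 0.13, limma adjusted p = 0.927). The latter was 0.18 without flox sample 4 or WT sample 2 and -0.0075 without WT sample 3.

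Mmp19 cuts basement membrane proteins. It read 8.37, 8.55, 7.81 and 7.45 on flox samples 1 to 4 and 7.67, 8.10, 7.60 and 7.70 on WT samples 1 to 4. Flox samples 1 and 2 were the 2 highest, and WT samples other than 2 lay between 7.60 and 7.70. The number difference was 0.53 log2 (SE 0.14, limma adjusted p = 0.110) and passed without WT sample 1 (0.68, adjusted p = 0.0347). It did not pass without any 1 other sample (limma adjusted p up to 0.280, without WT sample 2). The genotype difference was 0.28 (SE 0.22, limma adjusted p = 0.912), from 0.11 without flox sample 2 to 0.48 without flox sample 4.

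Among the inhibitors, Timp1 is the inducible one and binds pro-Mmp9. Timp1 read 10.25, 10.56, 9.35 and 9.03 on flox samples 1 to 4 and 9.28, 9.83, 9.06 and 9.10 on WT samples 1 to 4. Flox samples 1 and 2 again stood above all others, and WT sample 1 lay below flox sample 3, so the number groups overlapped. Timp1 had the largest genotype difference of the 10 genes, 0.48 log2 or 1.40-fold (SE 0.31, limma adjusted p = 0.912), which was 0.23 without flox sample 2 and 0.74 without flox sample 4. Its number difference was 0.85 log2, or 1.80-fold (SE 0.17, limma adjusted p = 0.0637). That value passed the threshold with quantile normalization (adjusted p = 0.0369), with the filter at the 50th percentile (adjusted p = 0.0444) and without WT sample 1 (1.03, adjusted p = 0.0128). It did not pass without any 1 other sample (limma adjusted p up to 0.215, without WT sample 2). Nor did it pass without the filter (0.0891) or without genotype in the fit (0.107).

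Timp2, which also takes part in Mmp2 activation, read 11.52, 11.35, 11.31 and 10.98 on flox samples 1 to 4 and 11.29, 11.35, 11.20 and 11.23 on WT samples 1 to 4. The WT samples spanned 1.11-fold and the flox samples 1.46-fold. Its number difference was 0.20 log2 (SE 0.08, limma adjusted p = 0.246), and 0.11 without flox sample 4; its genotype difference was 0.02 (SE 0.10, limma adjusted p = 0.978), and 0.13 without flox sample 4. Timp3, which stays bound to the matrix, read 10.79, 10.59, 10.45 and 10.25 on flox samples 1 to 4 and 10.69, 10.74, 10.48 and 10.59 on WT samples 1 to 4. Flox sample 2 (10.5905) lay just above WT sample 4 (10.5883), so its number groups were barely apart. Its number difference was 0.26 log2 (SE 0.07, limma adjusted p = 0.118) and its genotype difference -0.10 (SE 0.11, limma adjusted p = 0.915). The genotype value was -0.19 without flox sample 1 and -0.01 without flox sample 4.

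**Figure D2:**
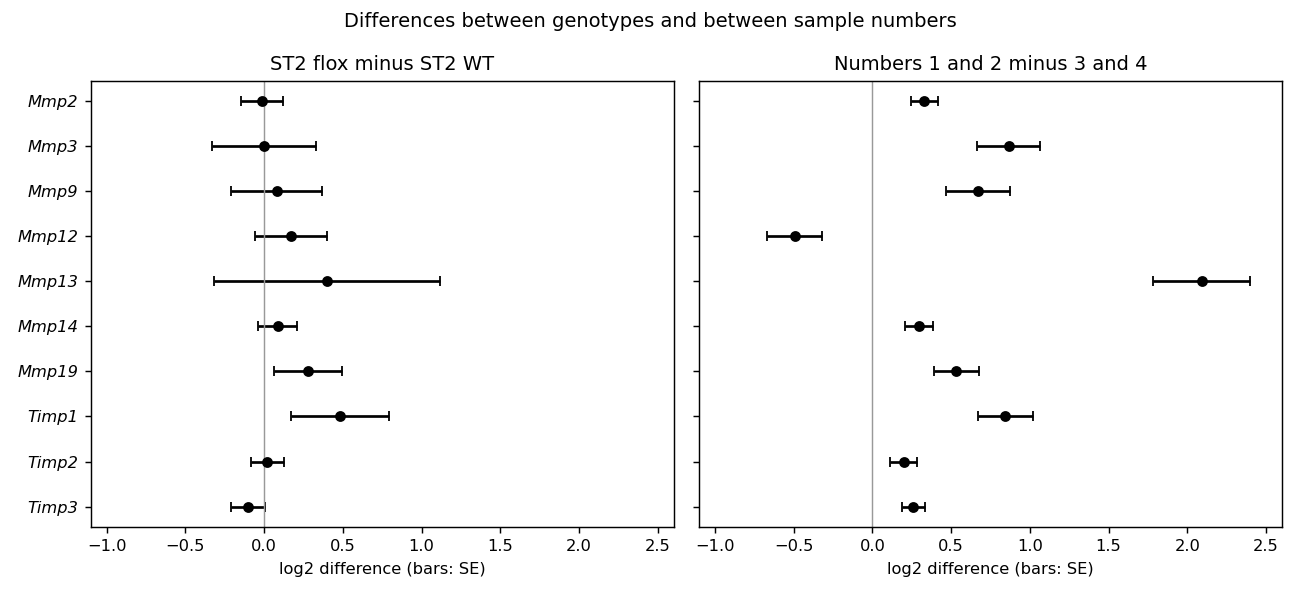
Log2 differences of the 10 genes between genotypes (left) and between sample numbers (right), from limma fits over all genes on 8 samples; bars are 1 standard error. Genotype differences lie between -0.10 (Timp3) and 0.48 (Timp1), and number differences between -0.49 (Mmp12) and 2.09 (Mmp13).

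The number difference was next taken within each genotype, from 2 samples against 2. In both genotypes 9 of the 10 genes had a higher mean in samples 1 and 2 and Mmp12 a lower one. Within flox, Timp1 (1.22 log2, SE 0.18, limma adjusted p = 0.0375) and Mmp19 (0.83, SE 0.15, limma adjusted p = 0.0403) passed the threshold, as did 1.58% of all genes in that direction. Mmp13 differed by 1.47 in flox (SE 0.34, limma adjusted p = 0.0613). Within WT 0 of the 10 passed, against 0.00666% of all genes (1 gene), with Mmp13 at 2.71 (SE 0.34, limma adjusted p = 0.0934), Timp1 at 0.47 (SE 0.18) and Mmp19 at 0.24 (SE 0.15). Whether the number difference itself differed between genotypes was tested by the interaction, flox minus WT. It was 0.74 for Timp1 (SE 0.25, limma adjusted p = 0.284), 0.60 for Mmp19 (SE 0.22, limma adjusted p = 0.289) and -1.24 for Mmp13 (SE 0.49, limma adjusted p = 0.301). These 3 had an unadjusted p under 0.05 and the other 7 did not; 0 of the 10 passed, and over all genes 0% were called (0 genes, with 2303 at an unadjusted p under 0.05).

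**Figure D3:**
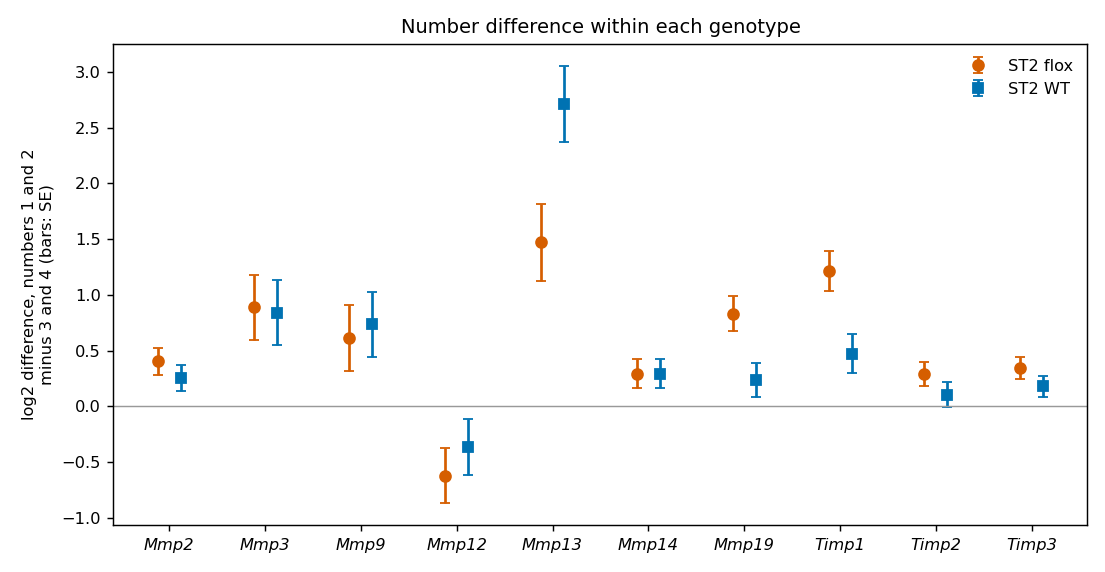
Log2 difference of samples 1 and 2 minus samples 3 and 4, within ST2 flox (circles) and within ST2 WT (squares), 2 samples against 2. Bars are 1 standard error, with the error pooled over all 8 samples. Mmp13 differs by 1.47 in flox and 2.71 in WT, and Timp1 by 1.22 and 0.47.

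Correlations between the 10 genes from sample to sample were computed for all pairs. Over the 45 pairs among the 10 genes, 36 had a positive Pearson correlation across the 8 samples, and the 9 negative ones were those with Mmp12. An exact permutation test with Benjamini-Hochberg adjustment over the 45 pairs passed 18 of them at 0.05. It exchanged all 8 samples freely, so the division by number, first seen in these data, enters these p-values. No p-value was computed after the mean of each number pair was taken out, and the share of other gene pairs that would pass was not computed. The closest pair was Timp1 and Mmp19 (r = 0.988, exact permutation p = 7.44e-05, adjusted 0.00335; rho = 0.976, exact permutation p = 3.968e-04, adjusted 0.00893). Without flox samples 1 and 2 their r was 0.946, and it was 0.977 after the mean of each number pair was taken out. Mmp2 and its activation partner Timp2 followed (r = 0.950, exact permutation p = 1.736e-04, adjusted 0.00391; rho = 0.976, exact permutation p = 3.968e-04, adjusted 0.00893), with r = 0.877 without flox samples 1 and 4 and 0.938 with the number means taken out. Mmp12 and Timp3 had r = -0.800 (exact permutation p = 0.0162, adjusted 0.0455; rho = -0.762, exact permutation p = 0.0368, adjusted 0.0570), with r = -0.766 without WT sample 1 and flox sample 4 and -0.598 with the number means taken out. Other pairs had far lower values once those means were taken out: Mmp13 with Mmp19 went from 0.678 to 0.083, Mmp2 with Mmp13 from 0.774 to 0.142, and Mmp3 with Mmp9 from 0.603 to -0.003. Of the 36 pairs without Mmp12, 32 then had a positive r. With Mmp12 the sign became positive in 4 of 9, with Mmp9 (0.725), Mmp13 (0.529), Timp1 (0.312) and Mmp19 (0.189). A number pair holds 4 samples, too few for a correlation of its own.

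Mmp13 and Timp1 varied most across the 8 samples (SD 1.25 and 0.59 log2). The other tested genes with a pattern most like Mmp13 by Pearson r over the 8 samples were Glis3 (0.977), Furin (0.968), Fmn1 (0.967) and Tmem127 (0.963). Those most like Timp1 were Dpep2 (0.995), Bst1 (0.993), Gla (0.992) and Clec4d (0.990). They are the extremes of a search over all genes and carry no test.

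Other genes of the pathway were counted in lists. Of the 17 other metalloproteinases and Timp4, 10 were tested and 0 passed in either fit, with 5 of 10 higher in samples 1 and 2 and a median number difference of -0.01 log2. Mmp10, a stromelysin, differed by 0.18 with number (SE 0.08) and by -0.14 with genotype (SE 0.10), and the inhibitor Timp4 by 0.22 with number (SE 0.08). Mmp25, a membrane-anchored enzyme, differed by 0.07 with genotype (SE 0.05). The median number difference of the 10 genes described here was 0.43 log2, and the difference between the lists was not tested.

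Among the related ADAM and ADAMTS proteases, 18 of 20 were tested and 0 passed in either fit, with 16 of 18 higher in flox (median 0.09 log2) and 14 of 18 higher in samples 1 and 2 (median 0.05). Adam8, a protease of activated leukocytes, was higher on each flox sample than on any WT sample (8.21 to 8.51 against 7.98 to 8.16), by 0.24 (SE 0.08, limma adjusted p = 0.912). Adamts1, which cuts proteoglycans, differed by 0.19 with genotype (SE 0.07). The aggrecanase Adamts5 differed by 0.39 with number (SE 0.11, limma adjusted p = 0.123), with samples 1 and 2 above all others, and Adamts20 by -0.41 (SE 0.10, limma adjusted p = 0.0934).

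Of the genes that activate plasminogen or cut proproteins, 8 of 13 were tested and 0 passed, with 7 of 8 higher in samples 1 and 2 and a median of 0.14 log2. The urokinase gene Plau (0.32, SE 0.09, limma adjusted p = 0.112) and Furin (0.18, SE 0.05, limma adjusted p = 0.112) lay higher in every sample numbered 1 or 2 than in any numbered 3 or 4. With genotype the urokinase receptor Plaur differed by 0.15 (SE 0.07) and the plasminogen receptor Plgrkt by 0.14 (SE 0.10). Of the 9 proteins that bind metalloproteinases, 8 were tested and 1 passed by number. This was Cd44, the hyaluronan receptor that can hold Mmp9 at the cell surface, at 1.52-fold (0.61 log2, SE 0.10, limma adjusted p = 0.0443; genotype difference 0.39, SE 0.21). The call was lost without any 1 sample other than WT sample 1, without the filter and without genotype in the fit. Lcn2, the lipocalin that pairs with Mmp9, differed 2.17-fold by number with no overlap (1.12 log2, SE 0.20, limma adjusted p = 0.0567) and by 0.45 with genotype (SE 0.40).

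Of 20 inducers of these genes and transcription factors, 16 were tested and 0 passed in either fit, with 13 of 16 higher in flox and 10 of 16 higher in samples 1 and 2. The cytokine gene Il1b differed by 0.81 with number (SE 0.19, limma adjusted p = 0.0807) and Csf1, the macrophage growth factor, by 0.35 (SE 0.07, limma adjusted p = 0.0637). Tgfb1 was 0.18 higher in flox with no overlap (SE 0.05, limma adjusted p = 0.912), and the AP-1 subunit gene Fosl2 differed by 0.18 with genotype (SE 0.08). Of 15 matrix substrates, 14 were tested and 0 passed in either fit. Here 12 of 14 were higher in flox (median 0.05 log2) and 6 of 14 higher in samples 1 and 2 (median -0.03). Eln, the elastin gene, was lower in every sample numbered 1 or 2 (-0.44, SE 0.12, limma adjusted p = 0.105), while the proteoglycan Vcan differed by 0.55 (SE 0.17, limma adjusted p = 0.147). With genotype the laminin chain Lamb1 differed by 0.14 (SE 0.09) and the tenascin Tnc by 0.41 (SE 0.26).

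Cell type markers were summed in the same samples, and 0 markers of any list passed the test by number. Over all genes, 43.29% had a higher mean in samples 1 and 2 and 48.84% in flox. All 10 macrophage markers had a higher mean in samples 1 and 2 (median 0.28 log2), with overlapping summed intensities of 10207 to 13825 there and 8658 to 11244 in samples 3 and 4. So did all 8 tested fibro-adipogenic progenitor markers (median 0.30; overlapping sums of 17676 to 21770 against 14213 to 19051). Muscle fibre sums were lower in samples 1 and 2 with no overlap (93651 to 96811 against 99300 to 101333). Satellite cell and myoblast sums were also lower but barely apart (1595 to 1788 against 1790 to 2162). Of all single genes, 6.21% lay lower in samples 1 and 2 with no overlap. Of the neutrophil markers only 3 of 9 passed the filter, and 6, among them S100a8 and Ly6g, did not. Of those 3, 1 had a higher mean in samples 1 and 2 (median -0.02). The neutrophil sums, taken over all 9 markers, the dim ones included, were 612 to 859 against 586 to 671. Of 7 endothelial markers 3 were higher there (median -0.001). Of 6 tested skin keratinocyte markers 0 were higher (median -0.47), with WT sample 4 among the samples set against them. By genotype, macrophage sums ran from 8658 to 13825 in flox and from 9754 to 11962 in WT, and fibro-adipogenic progenitor sums from 14213 to 21770 and from 17144 to 19079. T cell sums, over a list that holds Foxp3, ran from 838 to 1095 in flox and from 805 to 859 in WT. Of the 6 tested T cell markers, 5 had a higher mean in flox (median 0.16 log2). So had 9 of 10 macrophage markers (median 0.17) and 6 of 7 endothelial markers (median 0.08). In the fibro-adipogenic progenitor list it was 4 of 8, and in the satellite cell and myoblast list 3 of 5. It was 2 of 9 for muscle fibre, 1 of 3 for neutrophil and 0 of 6 for skin keratinocyte markers. Pericyte and smooth muscle sums ran from 7290 to 8635 in flox and from 7205 to 7461 in WT, with 4 of 5 markers higher in flox. All these sums overlapped between genotypes. The part of any cell type in the differences of the metalloproteinases was not tested. In bulk tissue, fewer cells of a type and less RNA per cell cannot be told apart. Mmp12, known from macrophages, had a lower mean in samples 1 and 2 that did not pass (limma adjusted p = 0.183). All 10 macrophage markers had the higher mean there, and how the 2 relate was not tested.

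**Figure D4:**
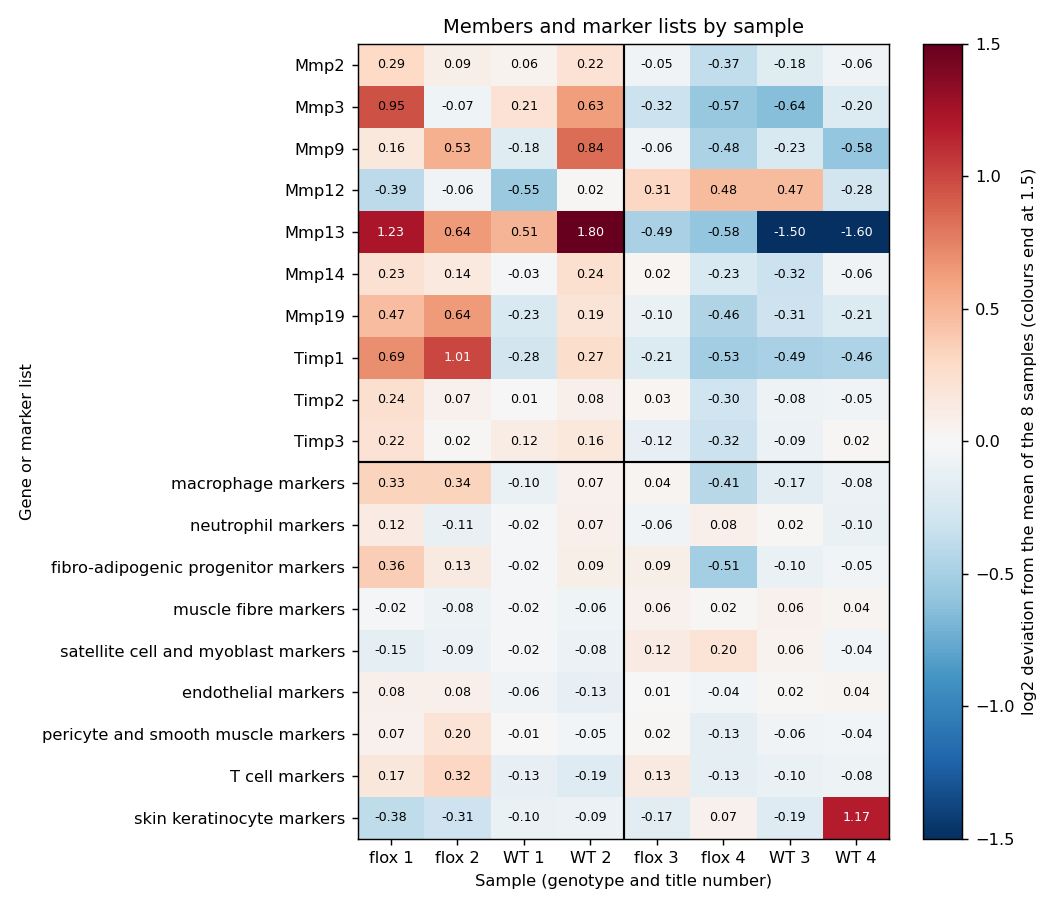
Log2 deviation of each sample (columns, ordered by title number) from the mean of the 8 samples, for the 10 genes (top rows) and for the mean of the tested genes of each marker list (bottom rows). Macrophage markers lie at 0.33 on flox sample 1 and -0.41 on flox sample 4, and skin markers are at 1.17 on WT sample 4.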

How the data were processed

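The deposited values are 1 intensity per probeset and array, made by the authors with RMA in Affymetrix Power Tools, per the submitters' processing notes. Its versions, the genome build and any filter were not given in the sources used here. RNA from 8 samples was hybridised to Affymetrix Mouse Gene 1.0 ST arrays, 1 per sample. The deposited intensities were linear (5.81 to 19080) and were log2 transformed without a pseudocount. RMA can compress differences of dim probesets. Rows naming 1 gene in the platform annotation were kept (21425 of 24922), those with a mean under the 25th percentile (6.35 log2) left out, and the brightest row per gene used. Groups were fitted with limma 3.58.1 in R 4.3.3: genotype alone; title number (1 and 2 against 3 and 4) with genotype as covariate; and their interaction. P-values were adjusted by Benjamini-Hochberg over all 15007 genes. The fits were tested on simulated data. The genes and lists were chosen with earlier results of these data known. Genes named from each list were the 2 with the smallest p in each fit, and the 4 most like each of the 2 most variable of the 10. The number of arrays limits the precision. Alternatives covered the row per gene, filter, normalization, pseudocount, variance prior, replicate block, covariates and leaving out each sample.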

Additional observations from a re-analysis of the deposited data

Results flagged for a closer look

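Among 80 groups of 4 samples examined (10 genes, the named pathway genes and 9 marker sums, in each genotype), 2 held a sample far from the others. About 1 in 20 such groups is expected by chance. Il1b on WT sample 2 was 6.98, against 6.18 to 6.26 on the other WT samples; the gap was 0.897 of the group's range. The skin keratinocyte marker sum on WT sample 4 was 11.34 on the log2 scale, against 9.82 to 9.93 (0.929 of the range). None of the 10 metalloproteinase and inhibitor genes was set apart this way in either genotype.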

How the results depend on the processing

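Over the alternatives, 0 of the 10 genes passed by genotype, and 9 of 10 stayed higher in samples 1 and 2. With the title number as a replicate block 0 genes passed by genotype and 7 of the 10 were higher in flox, as without it. Same-numbered samples deviated together with r of -0.002, 0.352, 0.253 and 0.042, not all above 0.1, so the numbers were not taken as pairs; whether a batch lies behind them was not tested. The count of genes called by number was 56 and became 29 without the filter, 258 with the filter at the 50th percentile, 341 with quantile normalization, 88 with a pseudocount of 16, 244 with a variance trend and robust prior, 322 within flox and 1 within WT; the causes were not tested. Of the 10 genes, 1 was called, and 2 with the 50th percentile filter, quantile normalization or within flox, 0 within WT. Leaving out each sample gave 3 (without WT sample 2 or 4) to 175 (without WT sample 1) genes called by number, with 0 to 3 of the 10; 0 to 2 (without flox sample 4) by genotype; 0 to 328 (without flox sample 3) in the interaction, none of them among the 10; and 4 (without WT sample 3) to 9 of the 10 higher in flox. Small genotype differences changed sign when samples were left out, over ranges of -0.117 to 0.104 for Mmp2, -0.319 to 0.207 for Mmp3, -0.101 to 0.372 for Mmp9, -0.071 to 1.06 for Mmp13, -0.0075 to 0.180 for Mmp14 and -0.057 to 0.125 for Timp2. Mmp3 was 0.0010 with the pseudocount.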
